A study of Mus musculus with 4 samples.

Results

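Kallikreins, clade B serpins, Kazal-type Spink inhibitors and Tmprss11 proteases were followed through single-cell transcript counts of mouse gingiva. Every row was taken whose symbol starts with Klk, Serpinb or Spink and a number, or with Tmprss11, and that held at least 20 unique molecular identifiers (UMIs, each standing for 1 captured transcript molecule) over the 4 libraries. The rule found 55 genes among 31253 rows. Of 72 rows with a matching symbol, 17 fell under the minimum and 5 of these held no UMI. Closest above the minimum were Serpinb9c with 21 UMIs, Klk4 with 25 UMIs and Spink13 with 28 UMIs, and closest below it were Klk1b3 with 18 UMIs, Klk1b8 with 15 UMIs and Serpinb9b with 14 UMIs. Of the 55 members, 29 held 1000 UMIs or more and 17 held fewer than 100, and together they held 850994 UMIs.

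Kallikreins are secreted serine proteases of trypsin-like or chymotrypsin-like specificity that are made as inactive precursors. In the outer epidermis they cut the corneodesmosome proteins that hold cornified cells together, so that these cells can be shed. Spink5 encodes LEKTI, a secreted string of Kazal-type domains that blocks several kallikreins, and its loss in humans causes Netherton syndrome. Clade B serpins are mostly intracellular inhibitors that trap a protease in an irreversible complex, and the Tmprss11 proteases are membrane-anchored trypsin-like enzymes found in airway and oral epithelium.

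The study took gingiva of mice labelled Itga9-Lyz2-cKO or Itga9-Lyz2-cHet, with or without experimental periodontitis (PD). For PD, a silk ligature was placed at the maxillary second molar and the bacterium Porphyromonas gingivalis was given, and gingiva was taken after 14 days. The groups are cKO_PD, cHet_PD, cKO_control and cHet_control, each a single library, so no difference below can be checked against replicates and none carries a p-value. All 4 groups carry the Lyz2 label, which names a promoter active in myeloid cells, and none is labelled wild type. The age of the mice, the number of animals behind a library and any pooling are not given in the sources used here.

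The libraries held 6684 barcodes in cKO_PD, 9072 in cHet_PD, 9331 in cKO_control and 8767 in cHet_control, with 21368197, 36231795, 62914870 and 58702911 UMIs in the same order. The lowest total of a barcode was 500 UMIs in the PD libraries and 1501 UMIs in the control libraries, and pairs of libraries shared between 65 and 116 barcode sequences. Itga9, the gene named in the genotype labels, stood in phagocyte or dendritic-like cells at 15.9 counts per 1000000 UMIs (CPM) in cKO_PD, 72.6 CPM in cHet_PD, 31.7 CPM in cKO_control and 88.1 CPM in cHet_control, on 9, 99, 18 and 47 UMIs, so both libraries labelled cKO were below both labelled cHet and neither was at 0. Keratinocytes, the cells of keratin-led clusters, made up 59.2% of kept barcodes in cKO_PD, 66.2% in cHet_PD, 76.4% in cKO_control and 88.1% in cHet_control. Cells of glands, airway-type epithelium and cartilage were also present: all 305 odorant-binding protein gland-like cells came from cKO_control, as did 536 of the Reg3g-led airway-type cells, of which cHet_control held 38.

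The members lie in groups of neighbouring genes, given here with GENCODE M21 coordinates on GRCm38. The 11 kallikreins outside the Klk1 group stretch over 195 kb at chr7:43690418-43885804, and the 11 genes of the Klk1 group follow at chr7:43966751-44229618. Of the clade B serpins, 11 lie at chr1:106861173-107610484 and 7 at chr13:32842092-34002794. The 7 Tmprss11 genes lie at chr5:86231481-86745815. Of the Spink genes, 7 lie on chromosome 18 and Spink2 lies on chromosome 5. All 55 are annotated as protein-coding.

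The RefSeq promoter table for GRCm38.p6 held an entry for 45 of the members, and none was found there for Serpinb13, Serpinb1a, Tmprss11e, Spink1, Spink5, Spink7, Spink10, Spink12, Spink13 and Spink14. The 250 bases before each start were searched on both strands for the AP-1 core TGANTCA and the TATA core TATAAA. Of 32851 promoters in the table, 6.75% held the AP-1 core and 12.4% held the TATA core in the same length. Among the serpins of chromosome 1, 6 of the 10 with an entry held the AP-1 core, namely Serpinb2, Serpinb5, Serpinb7, Serpinb8, Serpinb11 and Serpinb12. The TATA core was found in 7 of those 10, namely Serpinb2, Serpinb3a, Serpinb3b, Serpinb3c, Serpinb3d, Serpinb7 and Serpinb12. Neither core was found in any entry of the 11 kallikreins, the 11 genes of the Klk1 group or the 6 serpins of chromosome 13 with an entry. Members are counted by gene, with a match in any of its entries, while the shares of the whole table are by promoter. In the Tmprss11 group the AP-1 core was found in Tmprss11d and Tmprss11f, among 6 genes with an entry. These matches describe letters in a window, and no AP-1 match overlapped a TATA match.

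Promoters are shown for 5 members that were at least 2-fold apart between PD and control keratinocytes: the protease gene Tmprss11g and the kallikrein Klk10, which were higher in PD of both genotypes, the kallikrein Klk8, which was lower in both, and the serpins Serpinb2 and Serpinb7, which passed 2-fold in the cHet pair in opposite directions. They are written 5′ to 3′ on the gene's own strand, stop before any exon that GENCODE M21 places on that strand, and carry capitals where either core matches on either strand. Tmprss11g is read at chr5:86518601-86518850 on the minus strand. On the plus strand, Klk10 is read at chr7:43780804-43781034, Klk8 at chr7:43797327-43797576, Serpinb2 at chr1:107511173-107511422 and Serpinb7 at chr1:107422439-107422688.
Tmprss11g promoter: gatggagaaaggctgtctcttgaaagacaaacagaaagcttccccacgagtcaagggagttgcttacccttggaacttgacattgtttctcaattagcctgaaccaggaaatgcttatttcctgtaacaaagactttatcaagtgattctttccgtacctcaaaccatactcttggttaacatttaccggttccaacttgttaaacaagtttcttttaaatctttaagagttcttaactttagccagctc
Klk10 promoter: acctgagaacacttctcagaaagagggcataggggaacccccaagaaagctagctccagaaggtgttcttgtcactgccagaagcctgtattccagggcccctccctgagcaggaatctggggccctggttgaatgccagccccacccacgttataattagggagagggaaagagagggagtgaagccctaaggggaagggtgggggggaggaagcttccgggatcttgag
Klk8 promoter: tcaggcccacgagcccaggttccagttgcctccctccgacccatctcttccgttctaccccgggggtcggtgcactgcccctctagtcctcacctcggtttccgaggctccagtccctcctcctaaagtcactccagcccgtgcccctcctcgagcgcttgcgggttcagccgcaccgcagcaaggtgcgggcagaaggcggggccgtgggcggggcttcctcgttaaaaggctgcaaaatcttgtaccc
Serpinb2 promoter: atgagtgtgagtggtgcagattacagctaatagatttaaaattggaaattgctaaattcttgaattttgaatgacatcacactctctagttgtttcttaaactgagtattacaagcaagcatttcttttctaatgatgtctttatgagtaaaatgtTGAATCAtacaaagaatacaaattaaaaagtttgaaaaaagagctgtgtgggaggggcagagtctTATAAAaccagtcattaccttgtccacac
Serpinb7 promoter: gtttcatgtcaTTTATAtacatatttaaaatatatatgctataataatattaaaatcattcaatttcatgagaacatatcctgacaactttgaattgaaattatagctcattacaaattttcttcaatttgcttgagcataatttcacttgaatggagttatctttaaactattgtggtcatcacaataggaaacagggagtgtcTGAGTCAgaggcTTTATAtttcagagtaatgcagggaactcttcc
In Serpinb2 the AP-1 match starts 94 bases and the TATA match 29 bases before the RefSeq start. In Serpinb7 the AP-1 match starts 45 bases before that start, and 2 TATA matches on the minus strand lie 239 and 33 bases before it. The other 3 promoters hold neither core and are in lower case throughout.

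Most members were read out mainly in keratinocytes. The share of kept UMIs that lay in keratinocytes was 94.9% for Tmprss11d, 95.4% for Tmprss11g, 95.7% for Klk10, 95.6% for Klk8, 98.0% for Klk7, 95.8% for Spink5 and 96.6% for Serpinb3a. It was lower for Serpinb1a (82.1%), Klk14 (78.6%), Serpinb11 (76.5%), Serpinb8 (69.9%), Serpinb6a (69.8%), Serpinb6b (67.1%), Serpinb9 (36.4%) and Klk1 (20.7%). Summed over the 55 members, keratinocytes held 5482 CPM in cKO_PD, 5753 CPM in cHet_PD, 5599 CPM in cKO_control and 6597 CPM in cHet_control, with cHet_control the highest. CPM are not divided by transcript length, so each gene is compared with itself across cells and libraries. Fewer cells of a layer and less RNA per cell cannot be told apart in a sum over all keratinocytes, which is why layers are given beside it.

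The kallikreins outside the Klk1 group were highest in the outermost keratinocyte layer, and most Tmprss11 genes in junctional-like cells. Cells were clustered without the 72 matching rows, so these genes did not draw the clusters, and the level of a class is the mean of the libraries in which it held at least 40 cells. Among the 29 members of 1000 UMIs or more, 16 were highest in cornifying-like cells, a cluster led by Lor, Rptn, Hrnr and Flg. These were all 8 kallikreins of that depth outside the Klk1 group, 7 of the 14 serpins and Spink genes, and Tmprss11e. Of the other serpins, 2 were highest in Krt2-led spinous-like cells and 5 outside the keratinocyte layers. Another 4, all Tmprss11 genes, were highest in junctional-like cells, a cluster led by Odam, which encodes a protein of the epithelium attached to teeth. Krt2-led spinous-like cells, T or NK cell-like cells and Cyp2a5-led airway-type cells were each highest for 2 members, and 3 other classes for 1 member each. Within keratinocyte layers alone, 19 of the 29 were highest in cornifying-like cells and 7 in junctional-like cells.

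**Figure D1:**
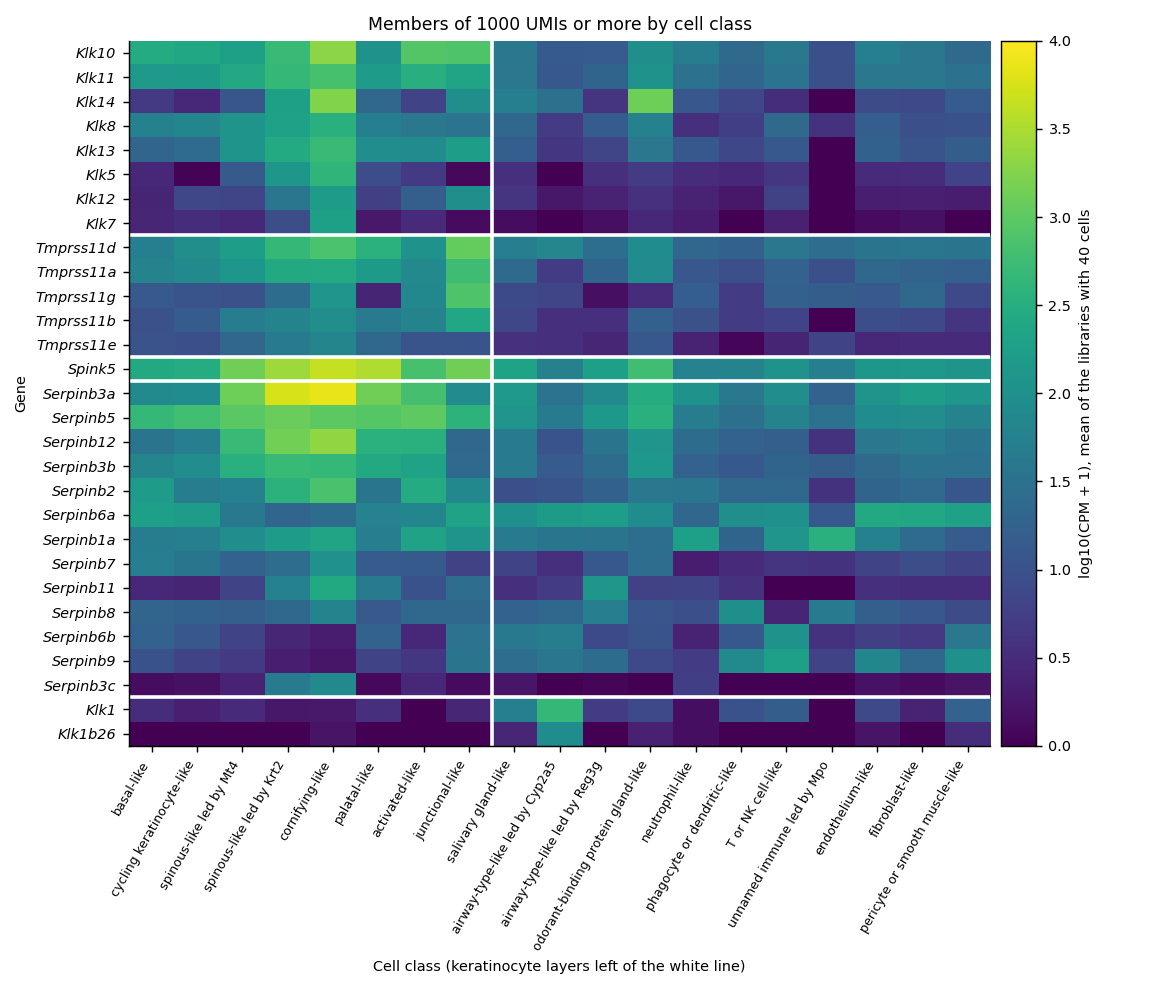
Level of the 29 members of 1000 UMIs or more (rows, by family) in 19 cell classes (columns), as log10 of CPM plus 1, averaged over the libraries in which the class held at least 40 cells; white lines part the families and set keratinocyte layers apart from other classes. Kallikreins, Serpinb3a, Serpinb12 and Spink5 are strongest in cornifying-like cells (Serpinb3a 7416 CPM), Tmprss11d in junctional-like cells (1143 CPM) and Klk1 in Cyp2a5-led airway-type cells (465 CPM).

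The kallikreins of the shedding step were sharply layered. Klk7, a chymotrypsin-like kallikrein that cuts corneodesmosomes, averaged 187 CPM in cornifying-like cells and 8.32 CPM in the next highest class, an unnamed keratinocyte cluster. In cornifying-like cells Klk7 stood at 109 CPM in cKO_PD, 107 CPM in cHet_PD, 209 CPM in cKO_control and 324 CPM in cHet_control. Both PD libraries were below both control libraries. Klk5, a trypsin-like kallikrein that activates Klk7 in humans, averaged 417 CPM in cornifying-like cells and 129 CPM in Krt2-led spinous-like cells. In junctional-like cells Klk5 was almost not read, with 1 UMI in cKO_PD, 1 in cHet_PD and 0 in both controls, while Klk10 averaged 790.0 CPM in those cells. Klk14, which activates Klk5 in humans, averaged 1776 CPM in cornifying-like cells and 3.83 CPM in basal-like cells. Klk8, Klk11, Klk12 and Klk13 also peaked in cornifying-like cells, at 351 CPM, 679 CPM, 156 CPM and 498 CPM.

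Serpinb3a and Spink5 climbed through the layers. Serpinb3a, a mouse counterpart of the human squamous cell carcinoma antigens, averaged 77.3 CPM in basal-like cells, 1296 CPM in Mt4-led spinous-like cells, 5629 CPM in Krt2-led spinous-like cells and 7416 CPM in cornifying-like cells. Spink5 averaged 271 CPM in basal-like cells, 1348 CPM in Mt4-led spinous-like cells, 2552 CPM in Krt2-led spinous-like cells and 4420.3 CPM in cornifying-like cells. Palatal-like cells held Spink5 at 3315 CPM, a mean of 2 libraries, the controls, since the PD libraries held 5 and 13 such cells. Serpinb3a and Spink5 were thus already abundant in spinous-like cells. Among the kallikreins, Klk10 was likewise read in low layers, at a mean of 292 CPM in basal-like cells and 2026 CPM in cornifying-like cells, and Klk8 averaged 56.9 CPM in basal-like cells. Serpinb12, an inhibitor of trypsin-like proteases, averaged 21.2 CPM in junctional-like cells and 2162 CPM in cornifying-like cells. Serpinb5, known as maspin, which does not act as a protease inhibitor in the usual way, was flatter, at 386 CPM in junctional-like cells, 456 CPM in basal-like cells and 1201 CPM in Krt2-led spinous-like cells.

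The Tmprss11 genes stood out in junctional-like cells. Tmprss11d, whose human form is called human airway trypsin-like protease, stood there at 1362 CPM in cKO_PD, 1236 CPM in cHet_PD, 1059.6 CPM in cKO_control and 916 CPM in cHet_control. Tmprss11a stood there at 511 CPM in cKO_PD, 419 CPM in cHet_PD, 623 CPM in cKO_control and 720.1 CPM in cHet_control, and Tmprss11b at 239.5, 352, 172 and 189.6 CPM in the same order. Tmprss11d and Tmprss11b were higher, and Tmprss11a lower, in both PD libraries than in both controls there, by less than 2-fold within each genotype. Tmprss11e, also called DESC1, differed from these genes and peaked in cornifying-like cells at a mean of 66.0 CPM. Tmprss11f with 240 UMIs and Tmprss11c with 57 UMIs were too thin for a profile over layers.

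For keratinocytes as a whole, PD and control libraries were compared within each genotype. A gene was called higher or lower where its levels were at least 2-fold apart after 10 CPM were added to each, with at least 50 UMIs in 1 of the libraries. Ratios are printed without added CPM, with an exact 95% interval that covers counting error only, so the ratio of a gene of low level can pass 2-fold without a call. In cKO_PD over cKO_control, 33 members could be compared; 2 were higher, beside 1.71% of 12079 genes, and 1 was lower, beside 2.23%, or 3.94% in either direction. In cHet_PD over cHet_control, 36 could be compared; 4 were higher, beside 3.96% of 12539 genes, and 4 were lower, beside 3.59%, or 7.54% in either direction. The members' median log2 ratio was 0.04 in the cKO pair, against -0.04 for all genes compared, and -0.05 in the cHet pair, against -0.07 for all genes compared. Of 33 members compared in both genotypes, 2 were higher in both, 1 was lower in both, 0 went in opposite directions and 5 passed 2-fold in 1 genotype only. Whether those 5 differ between genotypes was not tested. No share of all genes is given for these overlap counts, so they are description only and not a trait of the members.

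The keratinocytes compared were made up differently. Basal-like cells were 20.4% of keratinocytes in cKO_PD, 32.1% in cHet_PD, 49.8% in cKO_control and 38.3% in cHet_control, and cycling keratinocyte-like cells were 25.7% of keratinocytes in cKO_PD, 10.7% in cHet_PD, 0.989% in cKO_control and 0.674% in cHet_control. Activated keratinocyte-like cells were 8.89% of keratinocytes in cKO_PD, 22.3% in cHet_PD, 0.290% in cKO_control and 0.129% in cHet_control. Cornifying-like cells were 1.54% of keratinocytes in cKO_PD, 5.86% in cHet_PD, 1.06% in cKO_control and 1.89% in cHet_control, and junctional-like cells were 20.4% of keratinocytes in cKO_PD, 10.1% in cHet_PD, 2.25% in cKO_control and 0.860% in cHet_control. The PD libraries thus held more cycling, activated and junctional-like cells. Palatal-like cells were 0.128% of keratinocytes in cKO_PD, 0.219% in cHet_PD, 8.39% in cKO_control and 9.81% in cHet_control. Unnamed cluster 7, a keratinocyte cluster, was 0.359%, 0.354%, 14.0% and 15.7% in the same order. The part of this makeup in the sums was not tested beyond the layer values given with each gene.

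**Figure D2:**
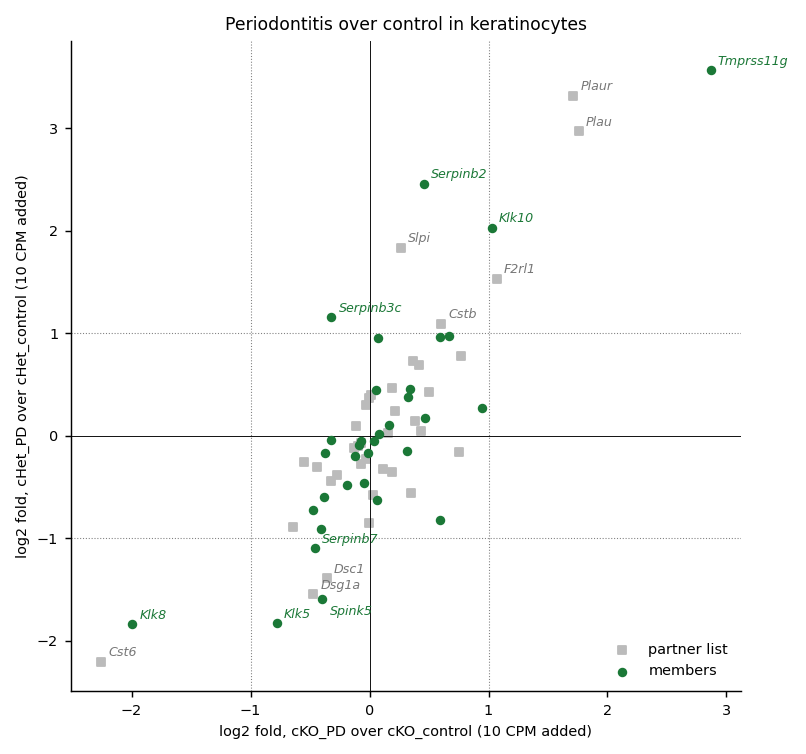
Log2 ratio of PD over control in keratinocytes, with 10 CPM added, in the cKO pair (x axis) and the cHet pair (y axis), for members (green) and partner genes (grey squares); dotted lines mark 2-fold. Tmprss11g (2.87 and 3.56) is high and Klk8 (-2.00 and -1.84) is low in both pairs, while Serpinb2, Serpinb3c, Spink5, Klk5 and Serpinb7 pass 2-fold in the cHet pair alone.

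Tmprss11g (ENSMUSG00000079451, chr5:86485876-86518600, minus strand) had the largest ratio of PD over control of any member. It stood at 184 CPM in cKO_PD, 222 CPM in cHet_PD, 16.6 CPM in cKO_control and 9.60 CPM in cHet_control keratinocytes, on 2354, 6144, 624 and 459 UMIs. Both PD libraries lay far above both control libraries. The ratio was 11.1 (95% interval 10.1 to 12.1) in cKO_PD over cKO_control and 23.1 (21.0 to 25.4) in cHet_PD over cHet_control. Within junctional-like cells, where it was highest, Tmprss11g stood at 911 CPM in cKO_PD, 1518 CPM in cHet_PD, 371 CPM in cKO_control and 341 CPM in cHet_control. In basal-like cells it stood at 20.3 CPM in cKO_PD and 23.6 CPM in cHet_PD, against 2.03 CPM in cKO_control and 1.52 CPM in cHet_control. In cornifying-like cells it stood at 102 CPM in cKO_PD and 348 CPM in cHet_PD, against 25.2 CPM in cKO_control and 22.9 CPM in cHet_control. The same order of PD over control was thus seen in junctional-like, basal-like and cornifying-like cells. Tmprss11g was called higher in 2 of 2 layers compared in the cKO pair and in 4 of 4 in the cHet pair. The basal-like values are low, and endothelium-like cells of 1 library held Tmprss11g at 29.0 CPM. PD and control basal-like cells also came largely from different clusters. How far RNA from other cells adds to the basal-like values was not tested. With junctional-like cells left out, an alternative chosen after seeing the data, the log2 ratio of Tmprss11g was 1.28 in the cKO pair and 2.54 in the cHet pair, against 2.87 and 3.56 with them.

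The neighbouring Tmprss11a, Tmprss11b, Tmprss11d and Tmprss11e differed less. Tmprss11d stood at 347 CPM in cKO_PD, 224 CPM in cHet_PD, 276 CPM in cKO_control and 249.9 CPM in cHet_control keratinocytes, with the PD and control values interleaved. Tmprss11a stood at 129 CPM in cKO_PD, 121 CPM in cHet_PD, 171 CPM in cKO_control and 189 CPM in cHet_control, lower in both PD libraries by less than 2-fold. Tmprss11b stood at 66.5 CPM in cKO_PD, 79.8 CPM in cHet_PD, 40.6 CPM in cKO_control and 36.2 CPM in cHet_control, higher in both PD libraries, and Tmprss11e stood at 17.6, 13.7, 16.4 and 26.6 CPM in the same order. The ratio of Tmprss11b was 1.64 (1.502 to 1.78) in the cKO pair and 2.20 (2.07 to 2.35) in the cHet pair, and it was called in neither. In basal-like cells, however, Tmprss11d was at 10.9 CPM in cKO_PD and 21.4 CPM in cHet_PD, against 99.0 CPM in cKO_control and 81.5 CPM in cHet_control, and Tmprss11a was at 11.3 CPM in cKO_PD and 36.9 CPM in cHet_PD, against 89.2 CPM in cKO_control and 104 CPM in cHet_control. Both were lower in basal-like cells of PD libraries, while junctional-like cells, where both are highest, were more frequent in PD. With junctional-like cells left out, the log2 ratio of Tmprss11d was -0.95 in the cKO pair and just past -1 in the cHet pair, against 0.32 and -0.15 with them, and that of Tmprss11a was -1.57 and -0.96, against -0.38 and -0.60.

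Klk8 (ENSMUSG00000064023, chr7:43797577-43803826, plus strand), known as neuropsin, was the member called lower in both genotypes. It stood at 29.8 CPM in cKO_PD, 35.2 CPM in cHet_PD, 149 CPM in cKO_control and 152 CPM in cHet_control keratinocytes. The PD libraries were close to each other, as were the control libraries, and the sets did not overlap. The ratio was 0.201 (0.180 to 0.222) in cKO_PD over cKO_control and 0.232 (0.217 to 0.248) in cHet_PD over cHet_control. Klk8 was called lower in 6 of 6 layers compared in the cKO pair and in 5 of 5 in the cHet pair. In cornifying-like cells it stood at 71.1 CPM in cKO_PD, 83.6 CPM in cHet_PD, 673 CPM in cKO_control and 577 CPM in cHet_control. In Krt2-led spinous-like cells it stood at 57.7 CPM in cKO_PD, 56.6 CPM in cHet_PD, 365 CPM in cKO_control and 308 CPM in cHet_control, and in basal-like cells at 15.4, 22.4, 103 and 86.6 CPM in the same order. The order was the same in each of these layers, and over 14 other settings its log2 ratio lay between -2.28 and -1.32 in the cKO pair and between -2.09 and -1.24 in the cHet pair.

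The basal-like class was drawn from different clusters in different libraries. Its cluster 3 held 549 cells of cKO_PD and 1761 of cHet_PD, against 9 of cKO_control and 13 of cHet_control, and its cluster 15 held 1396 cells of cKO_control and 5 from the other libraries together. Clusters 4 and 5 were shared by all 4 libraries. Klk8 stood at 17.0 CPM in cKO_PD, 15.2 CPM in cHet_PD, 76.7 CPM in cKO_control and 104 CPM in cHet_control in cluster 4, and at 9.19, 20.1, 81.7 and 74.3 CPM in the same order in cluster 5. Cluster 4 held 176 cells of cKO_PD, 67 of cHet_PD, 650 of cKO_control and 1274 of cHet_control. Cluster 5 held 71, 74, 867 and 1381 in the same order, so the PD values inside both rest on few cells. Within that limit, Klk8 was lower in PD in both shared clusters. The same limit holds for the cluster 4 values of Klk10, Serpinb2 and Spink5 below, for which cluster 5 is not given.

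Klk10 (ENSMUSG00000030693, chr7:43781035-43785410, plus strand) lies in the same gene group, with Klk9 between it and Klk8, and differed in the other direction. It stood at 514 CPM in cKO_PD, 853 CPM in cHet_PD, 247 CPM in cKO_control and 202 CPM in cHet_control keratinocytes, and both PD libraries were above both control libraries. The ratio was 2.08 (2.02 to 2.15) in cKO_PD over cKO_control and 4.23 (4.13 to 4.33) in cHet_PD over cHet_control. The cKO value lies at the 2-fold line and was past it in 9 of 14 other settings, against 14 of 14 for the cHet pair. In cornifying-like cells Klk10 stood at 3245 CPM in cKO_PD, 2864 CPM in cHet_PD, 924 CPM in cKO_control and 1069.6 CPM in cHet_control. In Mt4-led spinous-like cells it showed no such order, at 138 CPM in cKO_PD, 215 CPM in cHet_PD, 243 CPM in cKO_control and 142 CPM in cHet_control. In basal-like cells it stood at 292 CPM in cKO_PD, 508 CPM in cHet_PD, 200.3 CPM in cKO_control and 168 CPM in cHet_control, but inside the shared basal-like cluster 4 it stood at 172, 223, 199 and 159 CPM in the same order, where PD and control were interleaved. 2310002F09Rik, which is annotated on the opposite strand across Klk10 and over 382 bases of Klk8, was not analysed here, and whether counting used strand is not given in the sources used here.

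Apart from Klk5, the other kallikreins were not called in keratinocytes as a whole. Klk11 stood at 253 CPM in cKO_PD, 303 CPM in cHet_PD, 197 CPM in cKO_control and 218 CPM in cHet_control, Klk13 at 145, 123, 70.1 and 101 CPM in the same order, and Klk12 at 26.0, 17.0, 16.1 and 13.9 CPM in the same order. All 3 were higher in both PD libraries than in both control libraries, and the ratio of Klk13 in the cKO pair was 2.06 (1.94 to 2.19). For Klk12 the layers of the cHet pair went the other way. It was called lower there in 2 of 4 layers compared, with log2 ratios between -1.62 and -0.01. In the cKO pair its log2 ratios lay between -0.50 and 0.46 over 4 layers, with 0 called. Klk9 and Klk6 stood under 20 CPM in every library, with ratios in the cHet pair of 3.92 (3.35 to 4.61) on 514 UMIs in cHet_PD and 226 in cHet_control for Klk9, and of 14.7 (7.04 to 35.3) on 68 UMIs in cHet_PD and 8 in cHet_control for Klk6. Klk14 stood at 118 CPM in cKO_PD, 75.2 CPM in cHet_PD, 75.2 CPM in cKO_control and 140.4 CPM in cHet_control, and Klk7 at 4.69, 12.7, 8.34 and 13.5 CPM in the same order, and neither was ordered by treatment. In sum the 11 kallikreins outside the Klk1 group held 1107 CPM in cKO_PD, 1452 CPM in cHet_PD, 797 CPM in cKO_control and 910.4 CPM in cHet_control.

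Klk5 (ENSMUSG00000074155, chr7:43841971-43851181, plus strand) was lower in PD and was called in the cHet pair. It stood at 14.4 CPM in cKO_PD, 11.1 CPM in cHet_PD, 31.9 CPM in cKO_control and 65.0 CPM in cHet_control keratinocytes. The ratio was 0.451 (0.384 to 0.527) in cKO_PD over cKO_control, where the log2 ratio with 10 CPM added was -0.78 and not called, and 0.171 (0.152 to 0.192) in cHet_PD over cHet_control. In cornifying-like cells Klk5 stood at 203 CPM in cKO_PD, 75.4 CPM in cHet_PD, 555 CPM in cKO_control and 832 CPM in cHet_control. Both PD libraries were below both control libraries there, and cHet_PD was the lowest.

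**Figure D3:**
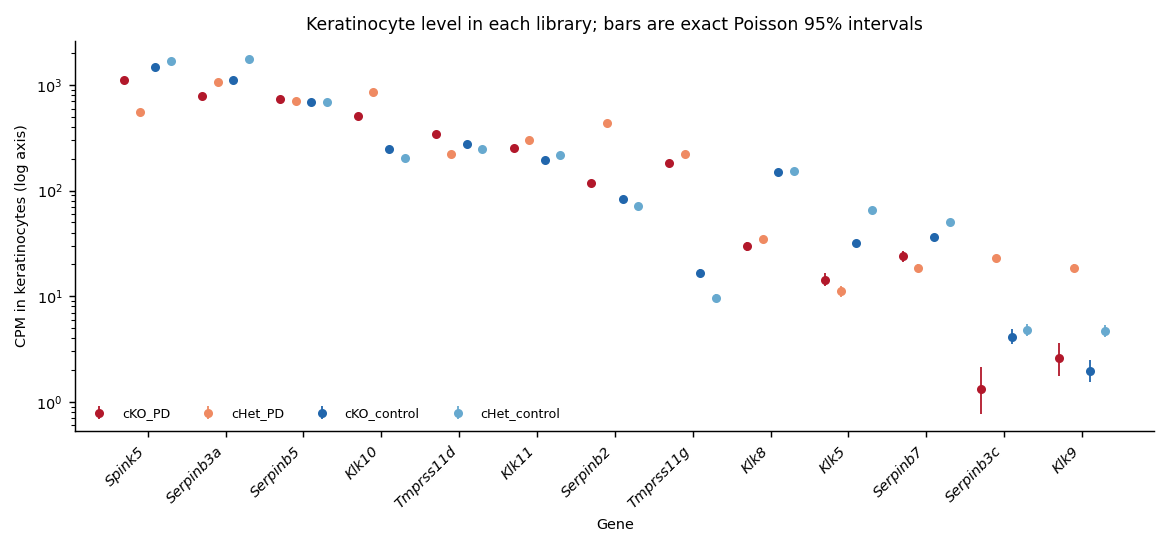
CPM in keratinocytes (log axis) of 13 members in cKO_PD, cHet_PD, cKO_control and cHet_control (points, left to right for each gene), with exact Poisson 95% intervals that cover counting error only. Tmprss11g and Klk10 are higher, and Klk8 and Klk5 lower, in both PD libraries than in both controls, while Serpinb2, Serpinb3c and Klk9 are highest in cHet_PD alone.

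Serpinb2 (ENSMUSG00000062345, chr1:107511423-107535478, plus strand), the urokinase inhibitor known as PAI-2, was high in 1 library. It stood at 118 CPM in cKO_PD, 441 CPM in cHet_PD, 82.8 CPM in cKO_control and 72.1 CPM in cHet_control keratinocytes. The ratio was 1.42 (1.33 to 1.51) in cKO_PD over cKO_control, which is not called, and 6.12 (5.90 to 6.36) in cHet_PD over cHet_control. In Krt2-led spinous-like cells it stood at 297 CPM in cKO_PD, 838 CPM in cHet_PD, 181 CPM in cKO_control and 143 CPM in cHet_control, and in cornifying-like cells at 652, 1401, 418 and 398 CPM in the same order. Both PD libraries were above both controls in these layers, with cHet_PD the higher of the pair. In basal-like cells it stood at 116 CPM in cKO_PD, 407 CPM in cHet_PD, 57.2 CPM in cKO_control and 39.3 CPM in cHet_control. Inside the shared basal-like cluster 4, however, it stood at 14.9, 40.6, 57.1 and 37.4 CPM in the same order. PD and control were interleaved there, on 176 cells of cKO_PD and 67 of cHet_PD. Serpinb10, which overlaps Serpinb2 by 6476 bases on the same strand, was not analysed here.

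Spink5 (ENSMUSG00000055561, chromosome 18) was lowest in cHet_PD. It stood at 1127 CPM in cKO_PD, 557 CPM in cHet_PD, 1486 CPM in cKO_control and 1700.2 CPM in cHet_control keratinocytes. The ratio was 0.758 (0.744 to 0.772) in cKO_PD over cKO_control, which is not called, and 0.327 (0.322 to 0.333) in cHet_PD over cHet_control. Spink5 averaged 3315 CPM in palatal-like cells and 2313 CPM in unnamed cluster 7 of the controls, and both classes were far rarer in PD. The part of this makeup in the ratios was not tested. In cornifying-like cells Spink5 stood at 3927 CPM in cKO_PD, 2025 CPM in cHet_PD, 4699 CPM in cKO_control and 7031 CPM in cHet_control. In basal-like cells it stood at 93.3 CPM in cKO_PD and 79.6 CPM in cHet_PD, against 601 CPM in cKO_control and 309 CPM in cHet_control, and inside the shared basal-like cluster 4 at 89.1 CPM in cKO_PD and 162 CPM in cHet_PD, against 292 CPM in cKO_control and 225 CPM in cHet_control. Both PD libraries were below both controls in basal-like cells, also inside that cluster. In junctional-like cells cKO_PD was the highest library, with Spink5 at 2034 CPM in cKO_PD, 988 CPM in cHet_PD, 1051 CPM in cKO_control and 1263 CPM in cHet_control. Of the other Spink genes, Spink2 held 362 UMIs, Spink10 held 261 UMIs and the remaining 5 held between 28 and 96 UMIs.

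Serpinb7 and Serpinb3c were the other serpins called. Serpinb7 (ENSMUSG00000067001, chr1:107399655-107452689, plus strand), whose loss in humans causes a palm and sole keratosis, stood at 23.8 CPM in cKO_PD, 18.5 CPM in cHet_PD, 36.5 CPM in cKO_control and 51.0 CPM in cHet_control keratinocytes. It was lower in both PD libraries, with a ratio of 0.362 (0.329 to 0.399) in cHet_PD over cHet_control. In cornifying-like cells Serpinb7 stood at 38.1 CPM in cKO_PD, 18.9 CPM in cHet_PD, 96.2 CPM in cKO_control and 264 CPM in cHet_control, on 15, 55, 80 and 426 UMIs. Serpinb3c (ENSMUSG00000073601, chr1:107271201-107278371, minus strand) stood at 1.33 CPM in cKO_PD, 22.9 CPM in cHet_PD, 4.15 CPM in cKO_control and 4.77 CPM in cHet_control keratinocytes, on 17, 634, 156 and 228 UMIs. It was high in cHet_PD alone, with a ratio of 4.80 (4.12 to 5.61) in cHet_PD over cHet_control. The annotated span of Serpinb3b holds 7161 bases of Serpinb3c on the same strand, and 5.76% of the 50-base windows at the 3′ end of Serpinb3c also occur in Serpinb3b, so reads between this pair are uncertain.

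The other serpins were not called in either genotype. Serpinb5 stood at 738 CPM in cKO_PD, 704 CPM in cHet_PD, 697 CPM in cKO_control and 698 CPM in cHet_control keratinocytes, nearly level, and Serpinb12 at 336, 357, 357 and 379.8 CPM in the same order. Serpinb3a stood at 794 CPM in cKO_PD, 1073 CPM in cHet_PD, 1109.6 CPM in cKO_control and 1774 CPM in cHet_control, and Serpinb3b at 183, 129.6, 246 and 253 CPM in the same order. Both were lower in each PD library than in the control of its genotype, by less than 2-fold. Serpinb11 stood at 20.8 CPM in cKO_PD, 24.6 CPM in cHet_PD, 21.1 CPM in cKO_control and 29.0 CPM in cHet_control. Serpinb1a, an inhibitor of neutrophil elastase and cathepsin G, stood at 108 CPM in cKO_PD, 137 CPM in cHet_PD, 64.0 CPM in cKO_control and 64.8 CPM in cHet_control, higher in both PD libraries at ratios of 1.68 (1.57 to 1.80) in the cKO pair and 2.11 (2.01 to 2.21) in the cHet pair, the cHet value being just under 2-fold with 10 CPM added. Serpinb6a, which inhibits cathepsin G, stood at 117 CPM in cKO_PD, 133 CPM in cHet_PD, 112 CPM in cKO_control and 94.4 CPM in cHet_control, Serpinb8 at 27.6, 21.8, 20.0 and 14.5 CPM in the same order, and Serpinb6b at 13.2, 5.95, 16.4 and 12.3 CPM in the same order. The ratio of Serpinb6b was 0.485 (0.406 to 0.577) in the cHet pair. In sum the clade B serpins held 2495 CPM in cKO_PD, 3079 CPM in cHet_PD, 2782 CPM in cKO_control and 3465 CPM in cHet_control.

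Counted by layer, cornifying-like cells held the most calls among members in the cHet pair, where the background was also highest. In the cKO pair basal-like cells held 1 call more than cornifying-like and cycling keratinocyte-like cells. More members were compared in basal-like cells, 27 against 21 and 15, so this is no ranking by share. In cKO_PD over cKO_control, 1 of 21 members compared were higher and 5 lower, beside 5.96% and 11.1% of 2013 genes in cornifying-like cells. In cHet_PD over cHet_control, 7 of 28 members compared were higher and 9 lower, beside 14.3% and 14.2% of 5165 genes. These counts rest on 60 cornifying-like cells in cKO_PD, 348 in cHet_PD, 62 in cKO_control and 132 in cHet_control. In basal-like cells of the cKO pair 1 of 27 members compared were higher and 6 lower, beside 3.48% and 2.68% of 10611 genes, and of the cHet pair 4 of 23 members compared were higher and 6 lower, beside 6.41% and 4.19% of 10744 genes. In junctional-like cells of the cKO pair 3 of 21 members compared were higher and 1 lower, beside 4.28% and 3.73% of 5820 genes, and of the cHet pair 4 of 20 members compared were higher and 1 lower, beside 9.62% and 4.64% of 5968 genes. In Krt2-led spinous-like cells of the cKO pair 1 of 24 members compared were higher and 1 lower, beside 1.88% and 7.26% of 5811 genes, and of the cHet pair 3 of 25 members compared were higher and 7 lower, beside 3.55% and 6.68% of 7440 genes. In Mt4-led spinous-like cells of the cKO pair 0 of 22 members compared were higher and 2 lower, beside 0.901% and 2.97% of 8213 genes, and of the cHet pair 0 of 23 members compared were higher and 3 lower, beside 1.58% and 2.93% of 9561 genes. In cycling keratinocyte-like cells of the cKO pair 2 of 15 members compared were higher and 4 lower, beside 6.98% and 2.73% of 6120 genes, and of the cHet pair 0 of 15 members compared were higher and 4 lower, beside 11.9% and 3.05% of 5180 genes. The members' median log2 ratio in cornifying-like cells was -0.26 in the cKO pair, against -0.04 for all genes, and -0.62 in the cHet pair, against 0.08 for all genes.

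**Figure D4:**
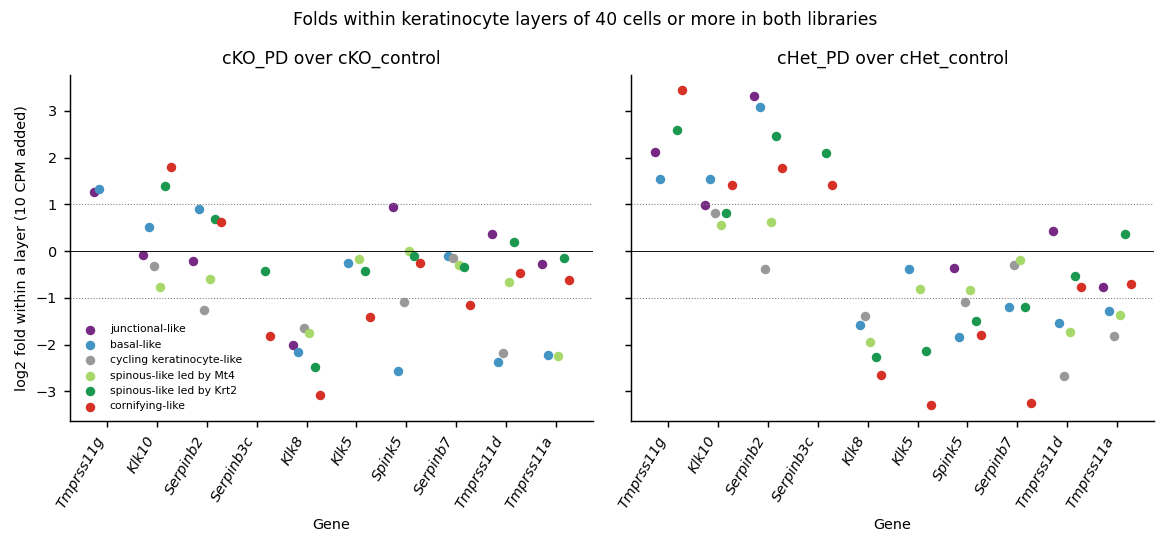
Log2 ratio of PD over control, with 10 CPM added, of 10 members within single keratinocyte layers (coloured points), in the cKO pair (left) and the cHet pair (right); a point needs 40 cells in both libraries and 50 UMIs of the gene in 1, and dotted lines mark 2-fold. All Klk8 points lie below the lower line and all Tmprss11g points above the upper one, while Klk10, Spink5 and Tmprss11d differ by layer.

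Genotypes were also compared within each treatment. These pairs use the same libraries as the pairs above, so their values are no further evidence for those differences. In cKO_PD over cHet_PD, 31 members could be compared in keratinocytes; 1 was higher, beside 0.318% of 11007 genes, and 3 were lower, beside 0.727%, or 1.04% in either direction. The members' median log2 ratio was -0.08, against 0.01 for all genes. Serpinb3c was lower at a ratio of 0.0580 (0.0336 to 0.0936), Klk9 at 0.139 (0.0946 to 0.198) and Serpinb2 at 0.266 (0.252 to 0.281). Klk9 stood at 2.58 CPM in cKO_PD, 18.6 CPM in cHet_PD, 1.97 CPM in cKO_control and 4.73 CPM in cHet_control keratinocytes. All 3 had their highest mean in cornifying-like cells, which made up a smaller share of keratinocytes in cKO_PD than in cHet_PD. Serpinb2 also averaged 645 CPM in unnamed cluster 9, which was 1.59% of keratinocytes in cKO_PD and 8.05% in cHet_PD. Activated keratinocyte-like cells were 8.89% and 22.3%. Between the PD libraries, 2 of 11 clade B serpins compared were lower in cornifying-like cells, beside 6.59% of 4826 genes. In activated keratinocyte-like cells 1 of 21 members compared was higher, a Spink gene, and 0 of 10 clade B serpins were called. No share of all genes is given for that class. The part of makeup in these ratios was not tested. Within cornifying-like cells Serpinb3c stood at 20.3 CPM in cKO_PD, 150.1 CPM in cHet_PD, 97.4 CPM in cKO_control and 50.2 CPM in cHet_control, and Klk9 at 40.6, 134, 20.4 and 78.1 CPM in the same order, so cKO_PD was below cHet_PD there too. Spink5 was higher at a ratio of 2.02 (1.98 to 2.07), which lies at the 2-fold line and was past it in 8 of 14 other settings.

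Inside layers, Klk14 and Klk5 differed between the PD libraries although their keratinocyte sums were not called. Klk14 in cornifying-like cells stood at 1922 CPM in cKO_PD, 611 CPM in cHet_PD, 1911 CPM in cKO_control and 2662 CPM in cHet_control, so cHet_PD was the low library. In junctional-like cells Klk14 stood at 244 CPM in cKO_PD, 51.1 CPM in cHet_PD, 17.4 CPM in cKO_control and 56.5 CPM in cHet_control, so cKO_PD was the high library. In cKO_PD over cHet_PD, 3 of 27 members compared were higher and 4 lower, beside 2.28% and 6.59% of 4826 genes in cornifying-like cells. In junctional-like cells 2 of 21 members compared were higher and 1 lower, beside 1.17% and 1.2% of 6256 genes, and in Krt2-led spinous-like cells 3 of 18 members compared were higher and 3 lower, beside 0.577% and 3.46% of 3292 genes. Klk14 was called higher in all 3 of these layers, and Klk5 in the 2 where it could be compared. In cKO_control over cHet_control, 35 members could be compared in keratinocytes and none was called, beside 0.152% of 12507 genes higher and 0.2% lower, or 0.352% in either direction, and with 1 CPM added in place of 10 there were 1 higher and 2 lower.

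A list of 47 partner genes, made up of other proteases, receptors, substrates and inhibitors, was read in the same keratinocytes. In cKO_PD over cKO_control 3 of 37 compared were higher and 1 was lower, and in cHet_PD over cHet_control 5 of 38 were higher and 3 were lower, against the same background as the members. Higher in both genotypes were Plau, which encodes urokinase, its receptor Plaur, and F2rl1, a receptor that trypsin-like proteases switch on. Plau stood at 111 CPM in cKO_PD, 246 CPM in cHet_PD, 25.9 CPM in cKO_control and 22.7 CPM in cHet_control, and Plaur at 40.1, 120.0, 5.29 and 3.07 CPM in the same order. Both were higher in cHet_PD than in cKO_PD, as Serpinb2 was, and Plau is also among the leading genes of the basal-like cluster 3 that was mostly PD cells. F2rl1 stood at 55.1 CPM in cKO_PD, 68.0 CPM in cHet_PD, 21.0 CPM in cKO_control and 17.0 CPM in cHet_control, higher in both PD libraries. Cst6, a cystatin that blocks cysteine proteases of the cornifying layer, was lower in both, at 2.03 CPM in cKO_PD, 4.11 CPM in cHet_PD, 47.4 CPM in cKO_control and 55.1 CPM in cHet_control.

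Outside keratinocytes the highest member differed by cell class. By the mean of the libraries it was Serpinb9 in T or NK cell-like cells and Serpinb1a in neutrophil-like cells. It was Serpinb6a in phagocyte or dendritic-like, endothelium-like, fibroblast-like and pericyte or smooth muscle-like cells. The mean in neutrophil-like cells rests on 2 libraries, and Serpinb1a led in cKO_PD only. In neutrophil-like cells of cHet_PD, Serpinb3a, at 203 CPM, was above it. Spink5, abundant in keratinocytes, had the highest mean in chondrocyte-like, salivary gland-like and Reg3g-led airway-type cells, at 146 CPM, 209 CPM and 179 CPM in this order. Keratins were also read outside keratinocytes. The level of a set of keratins had a median of 6.91% to 9.27% of their keratinocyte level over the libraries in T or NK cell-like cells. In neutrophil-like cells of cHet_PD the median was 13.3% and the highest single keratin was at 16.4%. Serpinb3a there, at 203 CPM against 1073 CPM in keratinocytes of that library, was above every keratin by this share. How far RNA from keratinocytes adds to it was not tested. The median was 2.25% to 5.47% in phagocyte or dendritic-like cells and 2.79% to 17.2% in chondrocyte-like cells. It was 10.6% to 24.5% in salivary gland-like cells and 9.58% in Reg3g-led airway-type cells. In these last 3 classes, where Spink5 held at least 50 UMIs, its share of the keratinocyte level was in 0 libraries above that of every keratin. Serpinb9, which inhibits granzyme B, stood at 111 CPM in cKO_PD, 148 CPM in cHet_PD, 287 CPM in cKO_control and 177 CPM in cHet_control in T or NK cell-like cells, on 14, 57, 75 and 27 UMIs, and at 10.6, 7.33, 8.45 and 6.11 CPM in the same order in keratinocytes. The level in T or NK cell-like cells was thus above that in keratinocytes in all 4 libraries. In phagocyte or dendritic-like cells Serpinb9 stood at 58.3 CPM in cKO_PD, 126 CPM in cHet_PD, 70.5 CPM in cKO_control and 54.4 CPM in cHet_control. Serpinb8 stood in those cells at 136 CPM in cKO_PD, 71.9 CPM in cHet_PD, 102 CPM in cKO_control and 80.6 CPM in cHet_control, with no order by treatment. Serpinb6b averaged 110.4 CPM in T or NK cell-like cells and 1.05 CPM in cornifying-like cells.

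Serpinb6a and Serpinb1a were also read outside epithelium. Serpinb6a in endothelium-like cells stood at 280.4 CPM in cKO_PD, 269 CPM in cHet_PD, 262 CPM in cKO_control and 245 CPM in cHet_control, and in fibroblast-like cells at 134, 339, 147 and 334 CPM in the same order. It was level in endothelium-like cells, and in fibroblast-like cells both cKO libraries were below both cHet libraries. Nqo2 overlaps Serpinb6a on the opposite strand, so reads of the pair could not be told apart if counting ignored strand. Serpinb1a in neutrophil-like cells stood at 312 CPM in cKO_PD, on 728 cells, and at 43.5 CPM in cHet_PD, on 829 cells, while the control libraries held fewer than 40 such cells. These PD cells came largely from different immune subclusters: the one led by Ngp and Retnlg held 335 cells of cKO_PD and 18 of cHet_PD, and the one led by Acod1 and Srgn held 56 and 566. Among 3566 genes compared between these PD cells 30.3% were at least 2-fold apart. An unnamed Mpo-led immune cluster of 67 cells in cKO_PD held Serpinb1a at 347 CPM.

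Gland-like and airway-type cells carried Klk14 and Klk1. Klk14 stood at 1313 CPM in the 305 odorant-binding protein gland-like cells of cKO_control, on 2936 UMIs, against 75.2 CPM in keratinocytes of that library. Keratins in these gland-like cells had a median of 41.7% of their keratinocyte level. Of the 50-base windows at the 3′ end of Klk14, 12.2% also occur in genes outside the kallikreins. Klk1, tissue kallikrein, which releases kinins from kininogen, stood in Cyp2a5-led airway-type cells at 471 CPM in cKO_PD and 459 CPM in cKO_control. In salivary gland-like cells Klk1 stood at 51.5 CPM in cKO_PD, 101 CPM in cKO_control and 1.44 CPM in cHet_control. Klk1b26, a kallikrein of the Klk1 group, averaged 85.7 CPM in the Cyp2a5-led airway-type cells. The 26 members under 1000 UMIs ranged between 21 UMIs for Serpinb9c and 896 UMIs for Klk9, and 9 of them belong to the Klk1 group.

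Most Klk1 UMIs, however, lay in barcodes that the filter on mitochondrial share or gene number leaves out. Left-out barcodes held 1344 Klk1 UMIs in cKO_PD, 0 in cHet_PD, 16881 in cKO_control and 2191 in cHet_control, and kept barcodes held 470 in cKO_PD, 1 in cHet_PD, 806 in cKO_control and 94 in cHet_control. The left-out part was the larger in the 3 libraries with more than 1 UMI. The signal came from few barcodes, since 61 barcodes with at least 50 Klk1 UMIs held 90.5% of it, and 56 of them were left out, with a median mitochondrial share of 34.4% over the 61. Levels of Klk1 by cell class thus rest on a small part of its UMIs. Klk1 shares 30.6% of its 3′ windows with other genes of its group, and 36 of the 55 members, Tmprss11g, Klk10, Klk8, Serpinb2 and Spink5 among them, share none with any gene.

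**Figure D5:**
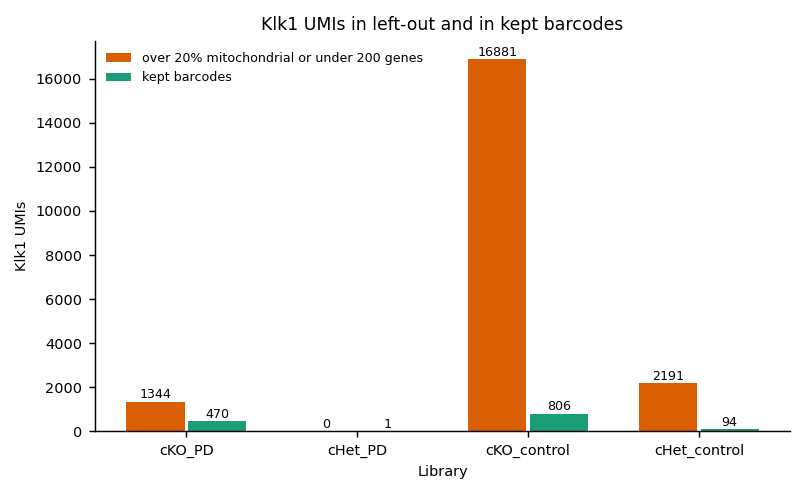
Klk1 UMIs (bars starting at 0) in barcodes left out by the filter and in kept barcodes, for each library. The left-out bar of cKO_control, at 16881 UMIs, is the tallest, and cHet_PD holds 1 UMI in all.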

How the data were processed

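Per the submitters' processing notes, the authors used fastp and STARsolo 2.7.10a with mm10. The authors deposited raw counts of UMIs for each gene in each barcode, and whether counting used strand is not given in the sources used here. One label names the 10x Genomics platform and another a BD Rhapsody protocol. Barcodes with at least 200 genes and at most 20% mitochondrial UMIs were kept (31150 of 33854). Scanpy 1.11.5 (Python 3.11.15, igraph 0.11.9) clustered them on 2000 variable genes, without the 72 matching rows and Itga9, with 30 principal components, 15 neighbours, Leiden resolution 1 and seed 1. Clusters were named "-like" from at least 3 markers among their top 50 genes, and others stayed unnamed. Keratinocytes were the keratinocyte-type clusters plus unnamed or cycling clusters with at least 10000 CPM over 7 keratins. Scrublet marked 2 barcodes with its rate set to 5%, so in effect no doublets were removed. UMIs were summed per class and library; classes needed 40 cells. Intervals are exact 95% counting intervals (SciPy 1.17.1) and cover counting error only. TMM (edgeR 4.0.16) and median-of-ratios factors (DESeq2 1.42.0, R 4.3.3) served as other scalings. The fold rule was checked on simulated counts. Values in every library are given for members of 1000 UMIs or more, for members past 2-fold and for the highest member of a class. Partner genes are named where called in both genotypes, and 1 gene of that list is not reported here. Members and lists were chosen with earlier results of these data known. Sequences are from RefSeq (GRCm38.p6).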

Additional observations from a re-analysis of the deposited data

Results flagged for a closer look

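Klk1 was counted mostly in barcodes that the comparisons do not use, which is what set it apart. Of its 21787 UMIs, 93.7% lay in the 2704 barcodes left out for over 20% mitochondrial UMIs or under 200 genes, while those barcodes held 7.62% of all UMIs. The other genes of the Klk1 group had 82.4% of their UMIs there, and all other members together had 2.84%. By library, left-out barcodes held 1344 Klk1 UMIs in cKO_PD, 0 in cHet_PD, 16881 in cKO_control and 2191 in cHet_control, and kept barcodes held 470, 1, 806 and 94 in the same order.

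The signal sat in few barcodes: 61 barcodes with at least 50 Klk1 UMIs held 90.5% of it, 56 of them left out, with a median mitochondrial share of 34.4%. In those 61 barcodes Cyp2a5 stood at 21045 CPM, against 628 CPM in all other barcodes, Atp1b1 at 6473 CPM against 341 CPM, Fxyd2 at 2524 CPM against 11.1 CPM and Krt18 at 952 CPM against 79.8 CPM. Krt7, Krt8, Cyp2f2 and Scnn1a were also higher in them. Other gland and airway markers were lower in them, with Car6 at 65.2 CPM against 1400 CPM and Obp1a at 47.1 CPM against 902 CPM. Reg3g stood at 3.62 CPM against 190 CPM and Krt19 at 8.45 CPM against 12.8 CPM. The keratinocyte genes Krt5, at 97.8 CPM against 3382 CPM, and Krt14, at 305 CPM against 5102 CPM, were low in them. Levels of Klk1 set out by kept cells therefore cover a small part of its UMIs.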

How the results depend on the processing

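No paired analysis was possible because there was 1 library in every group. Counts of members past 2-fold were remade under 14 settings, 11 planned and 3 chosen after seeing the data; 87 of 112 counts stayed within 1.5 times, no value of a gene called at the main setting changed sign (210 values), and 54 of 1400 values of genes not called did, among them Tmprss11d in the cKO pair without junctional-like cells. In cKO_PD over cKO_control, 2 members were higher and 1 lower: higher fell to 1 with 50 CPM added, at most 10% mitochondrial UMIs, named keratinocyte clusters only, or without the basal cluster of 1 library; lower was 4 with 1 CPM added, 3 at 10% mitochondrial, and 2 without that basal cluster or without junctional-like cells. In cHet_PD over cHet_control, 4 were higher and 4 lower: higher was 7 with TMM, with median-of-ratios or with named clusters only, and 8 with 1 CPM added; lower was 2 with 50 CPM added and 7 at 10% mitochondrial. In cKO_PD over cHet_PD, 1 was higher and 3 lower: higher was 0 with TMM, median-of-ratios, 50 CPM added, a common floor of 1501 UMIs, resolution 2 or without junctional-like cells, and 2 with 1 CPM added; lower was 6 with 1 CPM and 1 with 50 CPM added. Between controls, 1 CPM added gave 1 higher and 2 lower in place of 0 and 0. The cause was not tested. Tmprss11g, Klk8, Serpinb2 and Spink5 kept their cHet calls, and Tmprss11g and Klk8 their cKO calls, in all 14 settings. Serpinb7 lost its call with median-of-ratios or 50 CPM added, Klk5 with 50 CPM, and Serpinb3c with 50 CPM or at 10% mitochondrial. Klk10 in the cKO pair lost its call in 5 settings, at a lowest log2 ratio of 0.83. Depth limits members under about 50 UMIs in keratinocytes, which were not compared.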
